A study of Mus musculus with 18 samples.

Results

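Corner-loop domains are stretches of chromosome whose start and end were joined to each other by a chromatin loop. They were chosen by the coordinates of 2 lists, as the autosomal topologically associating domains for which a loop had its left anchor midpoint within 20 kb of the domain start and its right anchor midpoint within 20 kb of the domain end. The rule chose 677 of 12571 autosomal domains (5.39%), out of 13483 domains in all. Both the loop list and the domain list were used by the rule, so the presence of a loop at both ends is a description of how the members were chosen.

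The study measured chromosome contacts by Micro-C, in which micrococcal nuclease cuts chromatin between nucleosomes and neighbouring ends are ligated. Its 18 libraries came from an LDB1-AID subline of G1E-ER4, a mouse erythroblast line with the erythroid factor GATA1 fused to the hormone-binding part of a receptor. In this subline LDB1, a bridging factor that joins enhancers and promoters, carries an auxin-inducible degron, in control and treated cells alike. There were 9 untreated samples and 9 samples given auxin for 4 h, and the files analysed here hold 1 loop list and 1 domain list for the whole series, without a value for any sample or treatment. Whether the subline is a single clone, and which samples entered the lists, is not given in the sources used here. Library depth is unknown here. With no value per sample, no p-value was computed. The spread given is that over the 19 autosomes, and Wilson intervals (95%) cover only the counting of domains or loops. Coordinates are in mm9, the build named in the submitters' processing notes, counted from 1.

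In mammalian nuclei, a domain is a region that makes more contacts within itself than across its borders. On a contact map it appears as a square on the diagonal, and some squares carry a bright dot at the corner where start and end meet. Such corner dots are known from many cell types, where they often lie between sites bound by the insulator protein CTCF, at which the ring-shaped cohesin complex stops while it extrudes chromatin. Loops between enhancers and promoters, to which LDB1 is known to contribute in erythroid cells, commonly lie within domains. Neither CTCF nor LDB1 binding was measured in these lists, and no gene is named for a domain, because a gene table of the mm9 build was not used here.

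Corner-loop domains were small. Their median size was 290 kb (95% interval 280 to 300 kb, n = 677), with quartiles of 227.5 and 435 kb; the smallest measured 100 kb and the largest 1940 kb. The other 11894 autosomal domains had a median of 430 kb (420 to 430 kb). The median of corner-loop domains was lower than that of other domains on 19 of 19 autosomes, averaging 296 ± 34.4 kb against 426 ± 19.3 kb (SD over 19 autosomes).

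Corner loops were less frequent the larger the domain. They were found for 9.41% (7.91 to 11.2%) of domains from 100 to 200 kb, with 117 of 1244 domains, and 8.46% (7.50 to 9.54%) of those from 200 to 300 kb, with 244 of 2883. From 300 to 400 kb it was 6.22% (118 of 1896), from 400 to 600 kb 3.90% (95 of 2434) and from 600 to 1000 kb 2.84% (69 of 2430). At 1000 to 2000 kb it was 2.02% (1.45 to 2.81%), with 34 of 1684. The intervals of the smallest and the largest classes did not overlap. Those of neighbouring classes did, except that the class of 300 to 400 kb lay apart from both of its neighbours.

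The loop list itself holds fewer long loops. Counted from the side of the loops, 765 of 20535 autosomal loops were corner loops, and each belonged to exactly 1 domain. Their share was highest among loops of 200 to 300 kb, at 7.95% (7.07 to 8.93%, 259 of 3256), and was 2.42% (140 of 5793) at 100 to 200 kb. Above 300 kb it was 7.25% up to 400 kb, 5.65% up to 600 kb, 5.24% up to 1000 kb and 4.20% (35 of 834) beyond. No corner loop was shorter than 75 kb, and the smallest domain measured 100 kb.

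Loop anchors at both ends did not always belong to the same loop. There were 1558 autosomal domains with the left anchor of a loop near the start and the right anchor of a loop near the end. In 677 of them (43.5%) a single loop had both, and in 881 different loops did; the latter are called domains with unjoined anchors. The joined part was 59.4% (52.4 to 66.0%) of such domains at 100 to 200 kb, 55.2% at 200 to 300 kb, 44.5% at 300 to 400 kb and 33.5% at 400 to 600 kb. It was 29.7% at 600 to 1000 kb and 24.6% (18.2 to 32.4%) in the largest class. The share of domains with anchors at both ends varied less with size, from 15.8% in the smallest class to 8.19% in the largest. Thus both quantities were lower in larger domains. The plot of shares by size class shows the joined part beside the share of all domains with a corner loop.

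**Figure D1:**
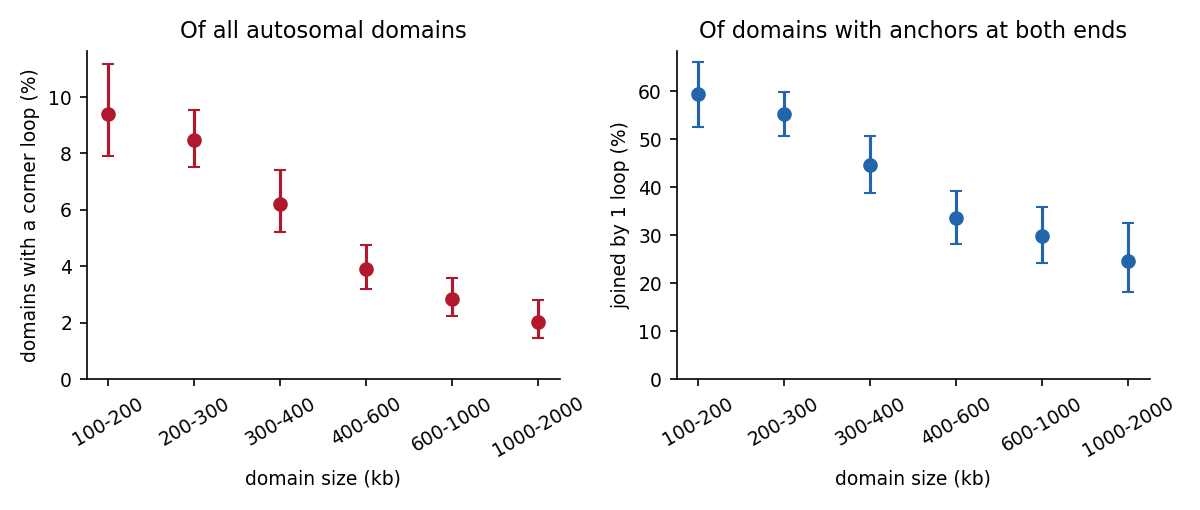
Share of autosomal domains with a corner loop (left, percent) and share of domains with loop anchors at both ends that were joined by 1 loop (right, percent), by domain size class in kb. Points are shares and bars are 95% Wilson intervals; both shares are highest at 100 to 200 kb (9.41% and 59.4%) and lowest at 1000 to 2000 kb (2.02% and 24.6%).

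Corner loops had a median span of 280 kb (95% interval 270 to 295 kb, n = 765) and ran from 75 to 1950 kb. Most domains had a single one: 593 had 1, 80 had 2 and 4 had 3. By coordinate grid, read from the anchor start positions, 395 corner loops (51.6%) had 5 kb steps, 316 (41.3%) had 10 kb steps and 54 (7.06%) had 2 kb steps. The last class holds the loops that fell in neither of the others. Whether these grids are bin widths of the loop calling is not given in the sources used here. Over all autosomal loops, 20.7% had 2 kb steps, and the part of loop span in this difference was not tested.

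The anchors of corner loops were not centred on the domain ends. The left anchor lay inside the domain in 540 of 765 corner loops (70.6%, 67.3 to 73.7%), outside in 172 and exactly at the start in 53. Its median position was 9.17 kb past the start (7.5 to 10 kb), and the median was above 0 on 19 of 19 autosomes. The right anchor had a median of -2.5 kb from the end (-2.5 to 0 kb), and it lay inside in 405 loops (52.9%, 49.4 to 56.5%) and outside in 309. These distances were used by the rule and end at its 20 kb limit, so the medians depend on that limit. In 296 corner loops (38.7%) both anchors lay inside the domain, in 73 (9.54%) both lay outside, and in 505 (66.0%) the loop was shorter than its domain. Both anchors were shifted to higher coordinates in 212 (27.7%) and to lower coordinates in 85 (11.1%).

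The 20 kb limit cut through this distribution. When loops with both anchors within 60 kb were collected, 4465 pairs of a loop and a domain were found for 2989 domains. Left anchors were then most frequent 30 to 35 kb past the start, with 484 pairs, and 391 pairs lay 20 to 25 kb past it, against 34 pairs at 20 to 25 kb before it. Right anchors were most frequent 15 to 20 kb before the end, with 383 pairs. The peak of left anchors thus lay outside the window of the rule and the peak of right anchors inside it. Over these pairs the median was 27.5 kb from the start for left anchors and -12.5 kb from the end for right anchors. Whether domain starts and ends differ in anchoring was not tested.

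**Figure D2:**
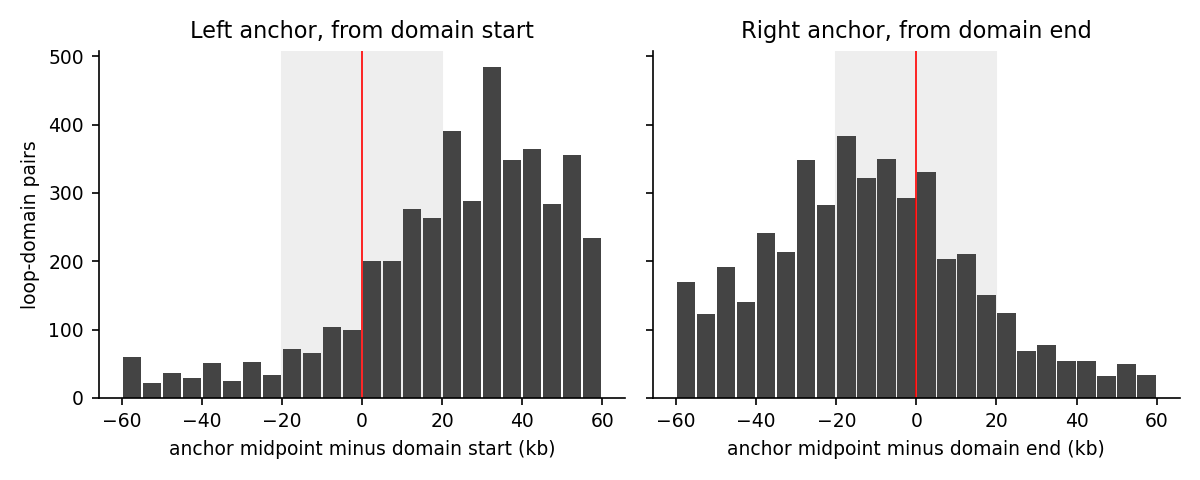
Number of loop-domain pairs (vertical axis) by distance of the left anchor midpoint from the domain start (left) and of the right anchor midpoint from the domain end (right), in kb in steps of 5 kb, for loops with both anchors within 60 kb. The grey band is the 20 kb window of the rule; left anchors peak at 30 to 35 kb with 484 pairs and right anchors at -20 to -15 kb with 383.

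Domains just inside and just outside the limit were of like size. Taking for each domain its closest loop by the larger of the 2 distances, 300 domains lay over 15 and up to 20 kb, and 233 lay over 20 and up to 25 kb. Their median sizes were 290 and 285 kb, and 78.3% and 87.1% of them held no other domain. Abutting at both ends was found for 27.7% and 27.5%. Only 61 members had a corner loop within 5 kb of both ends.

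The closest fit in each size class, by the smallest sum of the distances at both ends, shows the range of situations. It depends on the grid of the loop. A loop with 5 kb steps cannot have both midpoints exactly at domain ends that are multiples of 5 kb. The exact fits named here and in the next paragraph were all loops with 10 kb steps. On chromosome 11, the domain from 85195001 to 85295000 (100 kb) had a corner loop of 100 kb with midpoints exactly at both ends, held no other loop, and lay inside 2 larger domains. Also on chromosome 11, the domain from 29145001 to 29425000 (280 kb) had an exact corner loop on the 10 kb grid, 1 other loop inside and 1 crossing an end. Another domain on that chromosome, from 57285001 to 57591666, had anchors 2.5 and 0.834 kb past its start and end and 6 other loops inside. These 3 small domains held no domain within them.

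Larger domains with a close fit held 3 to 6 other loops. On chromosome 10, the domain from 12735001 to 13285000 (550 kb) had an exact corner loop and 6 other loops inside, and 4 loops ran inward from its start. On chromosome 7, the domain from 126155001 to 126815000 (660 kb) also had an exact corner loop and 6 other loops, and it held 1 smaller domain. On chromosome 1, the domain from 44808334 to 45825000 had a corner loop of 1020 kb whose left anchor lay 3.33 kb before the start, with 3 other loops inside.

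Nesting was compared at equal size, since small domains tend to lie inside larger ones. For this, values of other domains were weighted to the 6 size classes of the corner-loop domains. Of the 677 corner-loop domains, 551 (81.4%, 78.3 to 84.1%) held no other domain, against 78.8% of other domains at matched size. The difference averaged 2.70 ± 4.54 percentage points (SD over 19 autosomes), less than its spread, and was positive on 13 autosomes. Inside no other domain lay 208 corner-loop domains (30.7%, 27.4 to 34.3%) against 29.7% at matched size. This difference of 1.07 points turned to -2.78 when domains were also matched on the number of loops in the flanks, a match chosen after the data were seen. Without that match the difference was positive on 16 of 19 autosomes, averaging 2.04 ± 7.22 points (SD over 19 autosomes), less than its spread.

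In the middle of the nesting, 264 corner-loop domains lay inside 1 larger domain, 151 inside 2 and 54 inside 3 or more. The last share was 7.98% (6.16 to 10.3%) against 12.9% of other domains at matched size, lower on 17 of 19 autosomes. The difference averaged -5.58 ± 5.27 points (SD over 19 autosomes). Matching on flanking loops as well brought it from -4.88 to -1.69 points. Domains with unjoined anchors had 8.42% at matched size, close to the members. The member inside the most domains was on chromosome 11 from 116095001 to 116335000, a 240 kb domain inside 6 others with 3 other loops inside. Next came the domain from 59885001 to 60015000 on chromosome 11, inside 5 others, and that from 61435001 to 61805000 on chromosome 1, inside 4, which held no other loop.

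The gap in the number of domains within was widest for the largest corner-loop domains. At matched size, corner-loop domains held 0.387 inner domains against 0.487 in other domains, lower on 14 autosomes and higher on 5. This difference averaged -0.0997 ± 0.154 (SD over autosomes), less than its spread. By class, the mean was lower from 200 to 400 kb and above 600 kb. It was slightly higher at 400 to 600 kb (0.579 against 0.570). Among corner-loop domains of 1000 to 2000 kb, 23.5% of 34 held no other domain, against 5.03% of 1650 other domains of that size and 1.92% of 104 with unjoined anchors. Their mean number of inner domains was 3.26 against 4.28. This rests on 34 domains and was picked out after the values had been looked at.

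Sharing of edges depended on how close 2 edges had to be. At the identical coordinate, 531 corner-loop domains (78.4%, 75.2 to 81.4%) abutted another domain at 1 end at least, that is, their start was the end of another domain or their end the start of one, against 83.3% at matched size. Abutting at both ends was found for 191 (28.2%) against 37.7%, lower on 17 of 19 autosomes with a mean difference of -9.34 ± 8.82 points (SD over 19 autosomes). The pooled difference of -9.46 points was -5.24 when corner loops had to lie within 10 kb of the ends and -5.61 within 5 kb. In domains with unjoined anchors 25.5% abutted at both ends at matched size, so the lower share was not particular to corner loops. When edges within 20 kb counted as abutting, the order turned, with 97.5% of corner-loop domains abutting at both ends against 91.4%. The direction of the difference at both ends thus depended on this distance.

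The ends of corner-loop domains were more often off the 5 kb grid on which most domain ends lie. Both ends were multiples of 5 kb in 500 members (73.9%, 70.4 to 77.0%) and in 85.1% of other domains at matched size, lower in members on 17 of 19 autosomes. Domains with unjoined anchors had nearly the same share as members, at 75.8% at matched size. Seen the other way, 177 of 1626 domains with an end off that grid had a corner loop (10.9%, 9.46 to 12.5%), against 500 of 10945 (4.57%, 4.19 to 4.98%) with both ends on it. Off-grid domains abutted at both ends, at the identical coordinate, in 10.6% of cases against 39.1%. The part of these off-grid ends in the abutting result was measured by keeping only on-grid domains, where 34.6% of corner-loop domains abutted at both ends against 42.6%.

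A start or end used by another domain on the same side, as in nested domains with a common border, was found for 164 members (24.2%, 21.1 to 27.6%) against 25.3% at matched size. The difference was negative on 11 autosomes and positive on 8, and it changed sign under several settings. Domains with unjoined anchors shared a start in 19.3% of cases at matched size, against 11.7% of corner-loop domains, which were lower on 17 of 19 autosomes. For shared ends the values were 16.5% and 14.3%.

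Corner-loop domains held more loops than other domains of their size, except in the largest class. Pooled over the size classes, the count of loops away from their ends was nearly level. Leaving out the corner loops, they had a mean of 3.28 loops inside (both anchor midpoints within the domain; median 2, highest 35) against 2.22 in other domains at matched size. The mean was higher on 17 of 19 autosomes, with an average difference of 1.14 ± 0.964 loops (SD over 19 autosomes). At least 1 such loop was found in 529 members (78.1%, 74.9 to 81.1%) against 46.6%, and 148 members held none. In the class of 1000 to 2000 kb the order was the opposite, with 4.35 loops inside against 6.13. Interior loops, defined as having neither the left anchor within 20 kb of the start nor the right anchor within 20 kb of the end, numbered 1.70 per corner-loop domain against 1.76. A loop inside a domain that lay just past the 20 kb window at both ends thus counted as interior, while corner loops were left out. The part of such loops in the interior counts was not tested. The pooled value of interior loops joined classes of opposite direction. Members had more interior loops in each class below 600 kb, such as 0.521 against 0.348 at 100 to 200 kb. They had fewer above, with 3.45 against 3.73 at 600 to 1000 kb and 2.88 against 5.65 at 1000 to 2000 kb. The pooled difference was 0.00221 ± 0.725 (mean and SD over 19 autosomes) and negative on 11 autosomes, and its sign changed under several settings, such as leaving out chromosome 11.

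The number of loops around the domains moved with these counts. Within 500 kb on either side, corner-loop domains had 9.16 loops lying wholly in the flanks against 5.09 at matched size, higher on 18 of 19 autosomes. When other domains were matched on flanking loops as well, the difference in loops inside was 0.00837, with 3.28 against 3.28. Interior loops were then fewer in corner-loop domains, at 1.70 against 2.55. The part of loops lying just past the 20 kb window in this difference was not tested. The pooled mean of inside loops was thus level when domains were compared within size classes and 5 classes of flanking loops. Domains in such a class need not have equally many loops beside them. Inside loops include those anchored near the ends, where the rule asks for an anchor.

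Domains with unjoined anchors held more loops in their interior. At matched size they had 4.33 interior loops, 2.62 more than corner-loop domains, and corner-loop domains were lower on 19 of 19 autosomes, with a mean difference of -2.50 ± 0.936 (SD over 19 autosomes). With loops on the 5 and 10 kb grids alone, the pooled difference was -1.48 loops. The gap was present in each size class, with 0.521 against 1.13 at 100 to 200 kb, 1.12 against 2.26 at 200 to 300 kb and 2.88 against 14.3 at 1000 to 2000 kb. Their flanks held 11.6 loops at matched size, against 9.16, and the gap was not computed with flanking loops matched. A domain without a corner loop needs other loops to have both ends anchored, so counts of loops at their ends are raised by definition. Interior loops are not counted by the rule for either group, but may not be independent of the grouping. Unjoined anchors need several loops at a domain, and a corner loop needs only 1. The part of this, and of loops just past the 20 kb window, in the gap was not tested.

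**Figure D3:**
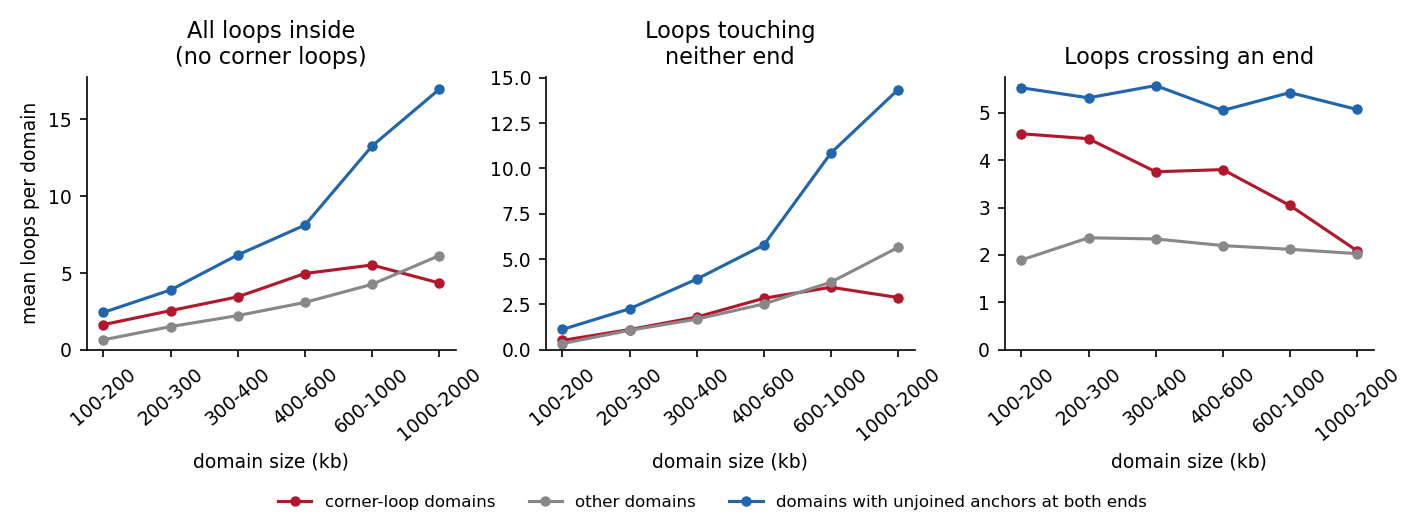
Mean number of loops per domain by size class in kb for corner-loop domains (red), other autosomal domains, which include the unjoined ones (grey), and domains with unjoined anchors at both ends (blue). The left panel shows loops inside other than corner loops, the middle panel loops touching neither end and the right panel loops crossing an end; in the middle panel red and grey lie close together up to 600 kb and blue lies above both in every class.

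Loops at the ends ran both inward and outward; their anchor at the domain end could lie up to 20 kb to either side of it. From the start, corner-loop domains had 0.848 other loops running inward, and from the end 1.30, against 0.208 and 0.478 in other domains at matched size. Outward, 1.95 loops reached the start from lower coordinates and 1.02 left the end for higher coordinates, against 0.734 and 0.450. All of these were higher on 19 of 19 autosomes. Since the rule asks for an anchor at both ends, these values describe the members and do not set them apart. Nor can start and end be set against each other, as the 20 kb window may miss more left anchors than right anchors. Domains with unjoined anchors had 1.91 outward loops at the start and 1.12 at the end.

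Inward loops made patterns around the corner loop. An inward loop from both ends, with its inner anchor over 20 kb from either end, was found in 227 members (33.5%, 30.1 to 37.2%). There were 95 members with such loops from the start only, 199 (29.4%) from the end only and 156 (23.0%) from neither. In domains with unjoined anchors, not matched for size, 636 of 881 (72.2%) had them from both ends. Another 80 (9.08%) had them from the start only, 147 (16.7%) from the end only and 18 (2.04%) from neither. Those domains need other loops at both ends by definition. Among loops with both anchors within 60 kb, left anchors peaked outside the 20 kb window and right anchors inside it. The part of this window in the difference between start and end was not tested. In 114 members (16.8%, 14.2 to 19.8%) 1 inner anchor was joined to both ends, so that start, end and an inner point were linked pairwise by 3 loops. Among domains with unjoined anchors, 11.3% at matched size had an inner anchor joined to both ends. The share was higher in corner-loop domains on 13 of 19 autosomes, and the difference of 4.27 ± 9.44 points (mean and SD over 19 autosomes) was less than its spread.

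Along the length of the domain, anchors of inside loops were concentrated near both ends. The rule asks for an anchor within 20 kb of both ends, so this concentration describes the members and does not set them apart. The first 10% of the length of corner-loop domains held 0.888 left anchors of inside loops per domain, and the next 10% held 0.458. In other domains at matched size these values were 0.401 and 0.412, with no such step. Right anchors numbered 1.18 in the last 10% and 0.427 in the 10% before it, against 0.549 and 0.375. Away from the ends corner-loop domains also lay above other domains, by less: from 30 to 40% of the length there were 0.388 left anchors against 0.242, and from 60 to 70% there were 0.341 right anchors against 0.246. These counts include the inner anchors of loops that ran inward from an end. Domains with unjoined anchors ran above both throughout.

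**Figure D4:**
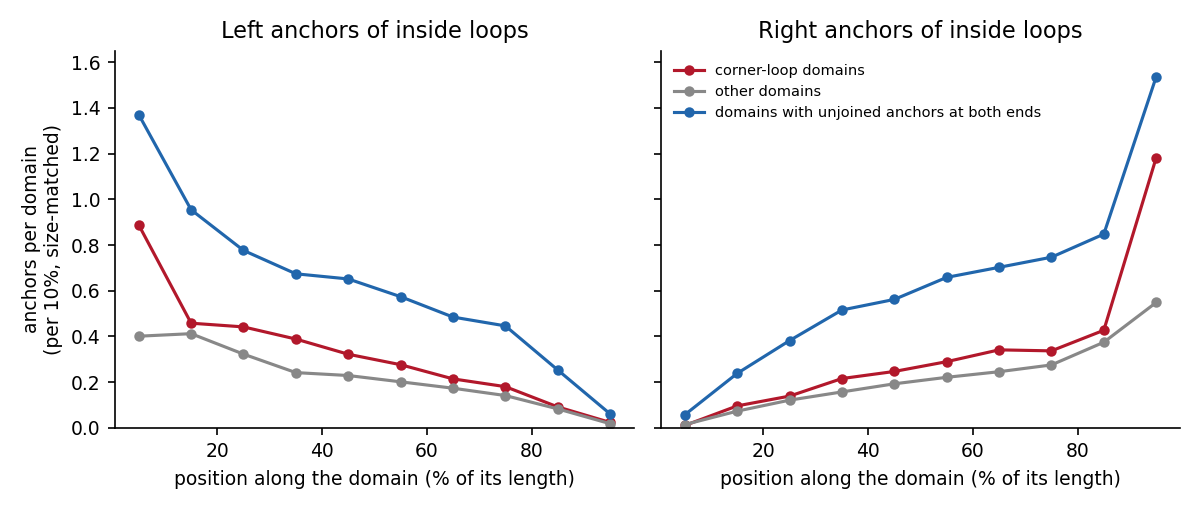
Left anchors (left panel) and right anchors (right panel) of loops inside domains, other than corner loops, per domain and 10% of the domain length, weighted to the size classes of corner-loop domains. Colours are as for the loop counts by size class; in corner-loop domains (red) the first 10% holds 0.888 left anchors and the last 10% 1.18 right anchors, against 0.401 and 0.549 in other domains (grey). The rule that chose the members asks for an anchor near both ends.

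Loops also ran across the ends of these domains. Corner-loop domains had a mean of 3.99 loops with 1 anchor inside and 1 outside (median 3, highest 24), against 2.21 in other domains at matched size, higher on 19 of 19 autosomes. The average difference was 1.77 ± 0.936 loops (SD over 19 autosomes), and 0.602 when flanking loops were matched. A loop leaving the domain from an anchor just inside an end counts as crossing, and the rule asks for an anchor near both ends. These counts therefore describe the members, and the difference without such loops was not calculated. At least 1 crossing loop was found in 599 members (88.5%, 85.9 to 90.7%) against 57.9%. A loop reaching over the whole domain was found for 365 (53.9%, 50.1 to 57.6%) against 30.1%. Both values were also high in domains with unjoined anchors at matched size, which had 5.36 crossing loops, more than corner-loop domains on 18 of 19 autosomes, and a loop reaching over 48.6% of them. Few corner-loop domains were free of other loops: 42 members had no other loop inside and none crossing, and 17 of these had none reaching over them either. In the class of 1000 to 2000 kb the crossing loops were level, at 2.09 against 2.03.

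The anchors of corner loops were themselves shared. Among corner loops, 95.6% overlapped an anchor of another loop, against 91.7% of other autosomal loops at matched span. Both anchors were overlapped in 69.4% against 59.8%, higher on 18 of 19 autosomes with an average difference of 10.5 ± 7.14 points (SD over 19 autosomes). Corner loops had 2.22 other loops at the left anchor and 2.41 at the right, against 2.02 and 2.02.

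The members with the most other loops inside were large. On chromosome 7, the domain from 51815001 to 52965000 (1150 kb) held 35 loops beside its corner loop of 1170 kb and 5 smaller domains, and 4 loops crossed an end. On chromosome 17, the domain from 84255001 to 84860000 (605 kb) held 24 other loops and on chromosome 12 that from 80395001 to 81245000 (850 kb) held 19, with 6 loops running inward from its end. Each of these 3 domains lay inside no other. In the first of them, none of the other loops ran inward from the start and 2 did from the end, and 33 were interior.

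Several corner loops in 1 domain were found with and without company. The domain on chromosome 11 from 44418334 to 44825000 (407 kb) had 3 corner loops and no other loop inside, crossing or over it. The domain on chromosome 5 from 135365001 to 135760000 (395 kb) had 3 corner loops, 13 other loops inside, 6 loops running inward from the start and 8 crossing loops. The domain on chromosome 4 from 59015001 to 59355000 (340 kb) had 3 corner loops and 7 others inside, and 5 loops ran inward from its end.

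Corner-loop domains also lay side by side. An edge within 20 kb of the facing edge of another corner-loop domain was found for 244 members (36.0%). They formed 141 junctions, and 58 members ended at the identical coordinate where another member began. The corner loops on either side had overlapping anchors at 56 junctions (39.7%), and at 37 (26.2%) a further loop ran from the start of the first domain to the end of the second. Nesting of members within each other was rarer, with 43 members inside another member. The share that adjacency would have without any preference was not calculated.

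The 3 longest runs had 4 domains each. The run on chromosome 5 covered 20505001 to 21310000, with domains of 255, 175, 215 and 165 kb. The run on chromosome 9 began at 98508334 and ended at 99578333, and its domains measured 353, 280, 190 and 230 kb. On chromosome 15, 4 domains of 195, 170, 260 and 230 kb lay between 102140001 and 103010000, and 1, 2, 1 and 6 other loops lay inside them. All 12 domains of these runs were under 400 kb and none held another domain.

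Chromosomes differed in their share of corner-loop domains. Over the 19 autosomes the share averaged 5.41% ± 1.39 (SD), with a median of 5.13%. Chromosome 11 had the highest, at 8.76% (6.88 to 11.1%, 61 of 696), followed by chromosome 9 at 7.90% (49 of 620) and chromosome 19 at 6.60% (20 of 303). The lowest were chromosome 17 at 2.97% (1.81 to 4.84%, 15 of 505) and chromosome 14 at 3.36% (21 of 625). Chromosomes 11 and 19 also had the most loops per Mb, at 13.2 and 12.3, and chromosome 14 the fewest, at 6.09. Chromosome 17 departed from this order with 10.5 loops per Mb, the third highest. There the joined part of domains with anchors at both ends was the lowest of the autosomes, at 29.4%, against 43.8% ± 6.93 (mean and SD over 19 autosomes). On X, which the rule leaves out, 15 of 912 domains (1.64%) had a corner loop, at 2.39 loops per Mb.

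**Figure D5:**
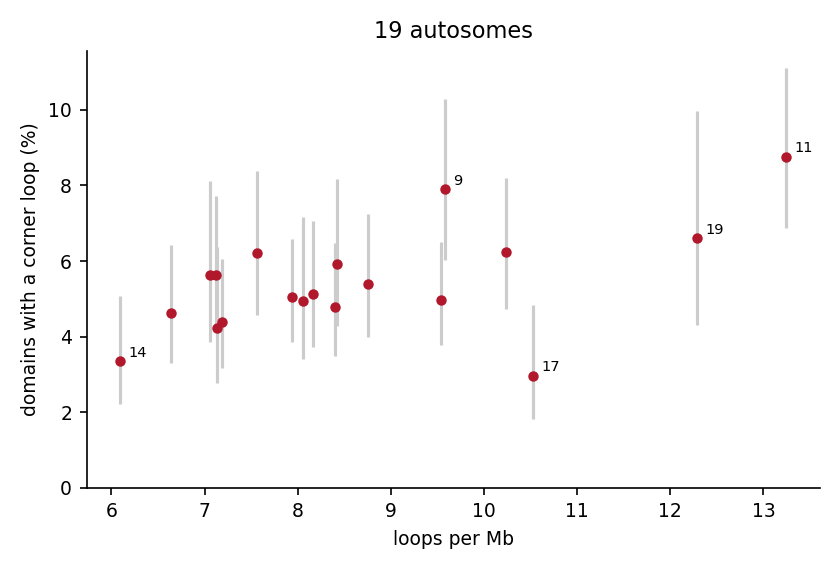
Share of domains with a corner loop (vertical axis, percent, bars are 95% Wilson intervals) against loops per Mb (horizontal axis) for the 19 autosomes, with chromosomes 9, 11, 14, 17 and 19 labelled. Chromosome 11 is highest on both axes (8.76% and 13.2 loops per Mb), and chromosome 17 has the lowest share (2.97%) at 10.5 loops per Mb.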

How the data were processed

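The authors deposited 1 loop list and 1 domain list, whose values are other than a measurement per sample: they are genome coordinates in bp with no header. The submitters' processing notes name mm9; the GRCm38 gene table ends before the largest coordinate on 8 of 20 chromosomes, and was not used to name genes. Callers, bin widths, filters and the samples entered are not given in the sources used here. Columns of per-sample values left unused numbered 0.

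Distances were taken from anchor midpoints, and each anchor was 10 kb wide. Size classes began at 100, 200, 300, 400, 600 and 1000 kb, lower limit included. Intervals of medians came from order statistics at 95%. Counting was tested on simulated lists with planted corner loops. Python 3.11.15, numpy 2.4.6, pandas 2.3.3, scipy 1.17.1 and matplotlib 3.10.9 were used.

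The members, lists and measures were chosen with earlier results of these data known. Domains named were the closest fit per size class (smallest sum of both anchor distances), the 3 highest for loops inside, corner loops and surrounding domains, and the 3 longest runs. Ties went to the lower chromosome number, then the lower start.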

Additional observations from a re-analysis of the deposited data

How the results depend on the processing

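Differences are corner-loop domains minus other domains at matched size, in percentage points for shares. Of 124 alternative values, 90 moved less than the spread, 19 moved more and 15 changed sign. The spread was the Wilson interval for shares and the SD over autosomes otherwise. Of 247 that left out an autosome, 1 changed sign and none moved more. The change was in interior loops, to 0.0125 without chromosome 11, the lowest value being -0.101 without chromosome 7. Leaving out 1 of 19 autosomes shifts a pooled value little against that spread, so this count says little. Loops inside, for example, ran from 0.996 to 1.14, with an SD of 0.964. Among results never reversed were size, loops inside, loops crossing and interior loops against unjoined anchors. Size and the comparison with unjoined anchors were not computed with flanks or off-grid ends matched. Loops inside and crossing include loops anchored near the ends, where the rule asks for an anchor.

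At distances of 5, 10 and 40 kb corner loops were found for 0.485, 1.68 and 16.0% of domains, and the joined share was 35.3, 36.6 and 57.5%. Wider windows admit more loops by construction; for the other changes the cause was not tested. With on-grid domains only, 4.57% had a corner loop; without loops on the 2 kb grid, 47.1% were joined. The share inside no other domain was -3.30 at 5 kb, -2.78 with flanking loops matched and -0.948 with off-grid ends matched. Abutting at any end was 2.60 at 5 kb, 0.214 with edges within 20 kb, -1.74 with flanks and -1.43 with off-grid ends matched; abutting at both ends was 6.04 with edges within 20 kb. Sharing an end on the same side was 1.91 at 10 kb, 0.886 at 40 kb, 1.92 with ends within 20 kb, 1.87 with on-grid domains only and 1.71 with off-grid ends matched. With flanks matched, loops inside differed by 0.00837 and crossing loops by 0.602. Interior loops against unjoined anchors kept their sign but moved from -2.62 to -1.48 without the 2 kb grid. Interior loops were 0.170 at 40 kb, 0.0418 without the 2 kb grid, 0.172 with on-grid domains only and 0.0300 with X. Matching on flanks (5 classes) or off-grid ends, and all settings for interior loops, abutting at both ends and 3 or more surrounding domains, were chosen after the data were seen.

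No paired analysis was possible because neither file carries per-sample values. With depth unknown, a contact below the callers' thresholds is missing from the list.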
